A study of Homo sapiens with 4 samples.

Results

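The genes described here encode the proteins of 4 DNA repair routes: base excision, nucleotide excision, mismatch repair and end joining. The 41 genes were chosen by name, 18 for base excision, 10 for nucleotide excision, 5 for mismatch repair and 8 for end joining, from a table of 23615 genes, and each was found in it. RNA-seq had been carried out on K562, an established human leukaemia line with erythroid features, in 2 samples exposed to 5 µM clofarabine (in 0.005% DMSO) and 2 samples labelled as treated with DMSO, the solvent of the drug, all collected at 3 h. Clofarabine is a purine nucleoside drug of acute leukaemia; phosphorylated in cells, it blocks the enzyme that makes deoxynucleotides and hinders DNA chain elongation. The comparison asks whether the transcripts of these repair routes differ in amount between drug and solvent at that time.

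Base excision repair begins with a glycosylase that cuts a damaged or wrong base, such as uracil, from the sugar. An AP endonuclease then nicks the strand, and a polymerase and a ligase fill and seal the gap. Nucleotide excision removes a short stretch of DNA around a bulky lesion, after TFIIH has opened the helix and a nuclease has cut on each side of it. Mismatch repair finds wrong pairs behind the replication fork through MutS complexes and passes them to MutL complexes, and end joining ligates broken ends after Ku has bound them. Clofarabine and related nucleoside analogues act on DNA synthesis, the process whose wrong pairs mismatch repair corrects.

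Transcripts of 2 members rose with clofarabine, MSH6 of mismatch repair and UNG of base excision repair. Their fold changes were 1.35 and 1.29. No member fell, and the 10 nucleotide excision and 8 end joining genes gave no call in either direction, where 2.57% of all genes tested were called, 1.54% higher and 1.03% lower. The members of highest CPM, those of PARP1, XRCC5, XRCC6, PRKDC and DDB1, had log2 fold changes between -0.02 and 0.04.

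The libraries are called C0 and C1 for clofarabine and V0 and V1 for DMSO. The deposited table names its conditions C and V without spelling them out. C was taken to be clofarabine and V vehicle, and were it the other way round each rise would be a fall. The clofarabine libraries held 13175630 (C0) and 23888755 (C1) estimated fragments, the DMSO libraries 8370550 (V0) and 11119379 (V1). Levels are given as CPM, fragment counts scaled to a common library size that edgeR's TMM method has adjusted, or as FPKM, the authors' values per transcript length, where levels of different genes are compared. A gene is said to rise or fall where edgeR's quasi-likelihood test gave a Benjamini-Hochberg adjusted p under 0.05 over all 11761 genes tested. Whether the samples of a group are separate cultures is not stated in the labels. The p-values therefore cover the spread among these samples and no more, and that spread may be technical. In bulk RNA a change in the share of cells at a stage of the cell cycle and a change in RNA per cell cannot be told apart. All 9 markers of K562 were above 1 CPM, with means between 45.7 and 13998 CPM, and their summed level was 25080 and 29485 CPM in the clofarabine libraries and 25736 and 27310 CPM in the DMSO libraries, most of it from globins. The erythroid factor GATA1 had 180 and 197 CPM with clofarabine and 227 and 222 CPM with DMSO, and KLF1 had 151 and 155 CPM with clofarabine and 165 and 184 CPM with DMSO. Both lay lower in each clofarabine library, and their part in the results was not tested. Of 9 markers of other cell types, MS4A1 and CDH5 were at 0 in every library and 4 averaged above 1 CPM, with EPCAM highest at 73.3 CPM. That list summed to 89.2 and 88.7 CPM with clofarabine and to 92.3 and 90.5 CPM with DMSO.

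The sequence before the start of both genes that rose, and of 2 mismatch repair genes that gave no call, is shown because all 4 windows hold letters resembling the site of E2F factors, which act on genes of the G1 to S transition. The sequences are RefSeq's on GRCh38.p14, written 5′ to 3′ along the gene's strand, with the E2F-like letters in capitals. They cover chr2:47783025-47783155 (plus strand) for MSH6, chr12:109098052-109098171 (plus strand) for UNG, chr5:80654532-80654651 (plus strand) for MSH3 and chr7:6009107-6009226 (minus strand) for PMS2.
MSH6: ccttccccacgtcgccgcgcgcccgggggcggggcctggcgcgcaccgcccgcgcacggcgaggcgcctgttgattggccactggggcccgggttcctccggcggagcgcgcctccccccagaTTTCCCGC
UNG: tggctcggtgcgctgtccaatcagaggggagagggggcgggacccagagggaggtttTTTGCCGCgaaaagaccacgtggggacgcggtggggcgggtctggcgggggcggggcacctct
MSH3: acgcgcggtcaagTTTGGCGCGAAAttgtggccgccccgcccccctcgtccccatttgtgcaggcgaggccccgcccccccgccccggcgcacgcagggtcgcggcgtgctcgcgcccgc
PMS2: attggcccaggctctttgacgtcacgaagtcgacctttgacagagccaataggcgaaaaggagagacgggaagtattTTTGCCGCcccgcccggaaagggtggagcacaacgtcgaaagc

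Each stretch ends at the base before an annotated start, except that of MSH6, which runs 11 bases into the transcript because its letters begin at base 4 of the transcript. The letters begin 63 bases before the start in UNG, 43 in PMS2 and 107 in MSH3, where the same-strand and opposite-strand matches overlap. MSH6 has 4 annotated windows and the letters were counted in the first, whereas UNG holds them in the second of 2. Searched were TTTCCCGC, TTTGGCGC, TTTCGCGC and TTTGCCGC on both strands, in windows from 250 bases before to 50 after each start, with up to 5 windows a gene. Windows were matched for 36 of the 41 members (all but NEIL2, POLB, PRKDC, SMUG1 and XRCC5). The letters stood in 5 of those 36 genes (13.9%), the fifth being XRCC6, in 5 of 43 other genes of the same pathways (11.6%) and in 591 of 8639 genes tested that had a window (6.84%). In the other genes of the pathways they stood in the windows of EXO1, PCNA, RFC3, LIG1 and CUL4A. Of these, EXO1 and PCNA rose with clofarabine. The letters were not found for MBD4, FEN1 or RFC4, which also rose, and of these a matched window is known for MBD4. Searched likewise, TTTGAA, the letters of the CHR element, stood in 22.2% of the 36 members and 13.3% of genes tested with a window, and CCAAT in 55.6% of those members and 43.8% of such genes. The share of genes was thus higher among the members than among genes tested for all 3 motifs. In the other genes of the pathways it was 9.3% for CHR and 60.5% for CCAAT. Counted by window, CHR letters stood in 14.3% of the members' windows, 10.3% of those of genes tested and 15.2% of all annotated windows. Against all annotated windows the members were higher for the E2F-like letters (10.7% against 3.31%) and CCAAT (44.6% against 34.6%). A match describes the letters of the window and not a bound site, and such letters stood both in genes that rose and in genes that gave no call.

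In the fit over all genes, 302 of 11761 genes passed the test (2.57%), 181 of them higher (1.54%) and 121 lower with clofarabine (1.03%). Of the 41 members, 40 had enough fragments to be tested, 2 were called higher (5.0% against 1.54% of all genes) and 0 lower by edgeR. DESeq2 called the same 2 higher (0.765% of all genes) and 0 lower (0.646%), and limma-voom called the same 2 higher (1.47%) and 0 lower (1.05%). At an unadjusted p under 0.05, 2 members were higher and 1, ERCC1, was lower, against 8.17% and 6.06% of all genes. The median log2 fold change of the members was 0.01, with quartiles of -0.03 and 0.08, whereas over all genes it was 0.00 with quartiles of -0.12 and 0.12. The sign was positive for 25 of the 40 members (50.6% of all genes), and for 17 of 40 where libraries were scaled by their totals alone. Both clofarabine libraries lay above both DMSO libraries for 6 members and below them for 4, while the groups overlapped for 30. Non-overlap of that kind was found for 43.2% of all genes, 22.0% above and 21.3% below. The members were chosen with earlier results of these data known, which limits what their shares can show.

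**Figure D1:**
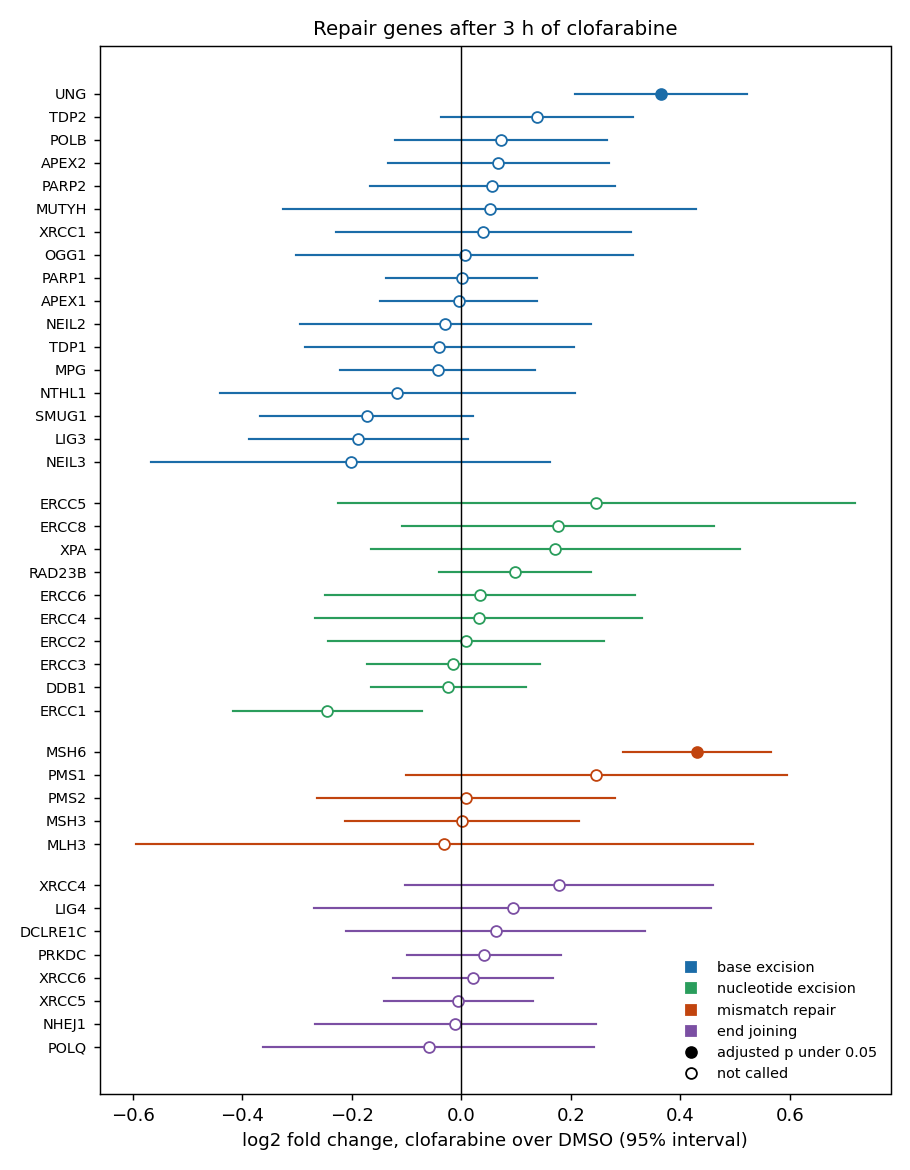
Log2 fold change of clofarabine over DMSO for the 40 tested members, grouped by repair route, with 95% intervals from edgeR's fit (2 libraries a group). MSH6 at 0.43 and UNG at 0.36 stand to the right of 0, and the interval of ERCC1 lies below 0 although its adjusted p of 0.145 misses the threshold.

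Among the base excision genes, UNG encodes the uracil DNA glycosylase that removes uracil incorporated at replication forks or left by cytosine deamination. Its level was 98.1 and 101 CPM in the clofarabine libraries, against 77.5 CPM in each DMSO library. The clofarabine libraries were higher than the DMSO libraries by more than the gap within either group. UNG averaged 99.7 ± 2.26 CPM with clofarabine and 77.5 ± 0.03 CPM with DMSO (SD, n = 2 each), a log2 fold change of 0.36 (SE 0.076, 95% interval 0.21 to 0.52, edgeR adjusted p = 0.0083). The call was lost on the FPKM scales (limma, adjusted p = 0.0587 on log2(FPKM + 1) and 0.0565 on log2(FPKM + 0.1)) and in edgeR without library V1 (adjusted p = 0.126), with a log2 fold change between 0.33 and 0.41 and an adjusted p between 2.86e-05 and 0.126 over the 18 alternatives.

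Of the 9 glycosylase genes, 8 were tested, 1 rose (1.54% of all genes) and 7 gave no call, with a median log2 fold change of -0.04. SMUG1, which also excises uracil, had 40.2 and 44.5 CPM with clofarabine and 47.5 and 48.4 CPM with DMSO. Both clofarabine libraries lay below the DMSO libraries, and its log2 fold change of -0.17 (SE 0.094) did not pass the test (edgeR adjusted p = 0.431). OGG1, the glycosylase of 8-oxoguanine, had 17.2 and 22.5 CPM with clofarabine and 18.0 and 21.7 CPM with DMSO, so that the groups overlapped. MUTYH, which removes adenine opposite 8-oxoguanine, averaged 10.2 ± 1.19 CPM with clofarabine and 10.0 ± 1.67 CPM with DMSO. NTHL1, a glycosylase of oxidised pyrimidines, had a log2 fold change of -0.12 with 14.3 CPM in C0, the lowest of its libraries. MPG, which excises alkylated purines, had a log2 fold change of -0.04.

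The NEIL glycosylases act on oxidised bases, and NEIL3 is known from dividing cells. NEIL3 had 11.2 and 8.87 CPM with clofarabine and 11.4 and 11.3 CPM with DMSO (log2 fold change -0.20, SE 0.18, edgeR adjusted p = 0.681). NEIL2 lay between 20.5 and 21.9 CPM in all 4 libraries. NEIL1 was the only member below the filter on low counts, with 8 and 20 fragments in the clofarabine libraries and 6 and 8 in the DMSO libraries, or 0.603 and 0.865 CPM against 0.707 and 0.714 CPM.

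APEX1, the main AP endonuclease, had 163 and 168 CPM with clofarabine and 173 and 159 CPM with DMSO, and the groups overlapped. Its relative APEX2 gave a log2 fold change of 0.07. PARP1, which binds strand breaks and builds poly(ADP-ribose) on proteins there, had 733 and 738 CPM with clofarabine and 731 and 739 CPM with DMSO. Its log2 fold change of 0.00 has a 95% interval of -0.14 to 0.14 in edgeR's fit. PARP2, with a like role, had a log2 fold change of 0.06.

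LIG3 encodes the ligase that works with the scaffold protein XRCC1. LIG3 had 38.8 and 37.2 CPM with clofarabine, below the 41.6 and 44.7 CPM with DMSO, and gave -0.19 on the log2 scale (SE 0.097, edgeR adjusted p = 0.395). XRCC1 had 29.2 and 28.3 CPM with clofarabine, between the 23.4 and 31.8 CPM with DMSO. POLB, the gap-filling polymerase, had a log2 fold change of 0.07. TDP1 and TDP2, which clear topoisomerase remnants from 3′ and 5′ ends, gave -0.04 and 0.14. Over the 17 tested base excision genes, 1 rose and 0 fell, against 1.54% and 1.03% of all genes. Of their signs 9 were positive (50.6% of all genes), and the median log2 fold change was 0.00.

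Among the nucleotide excision genes, 0 of 10 passed edgeR's test in either direction, where 2.57% of all genes did. DESeq2 and limma-voom likewise called 0, and 1 was lower at an unadjusted p under 0.05 in edgeR (6.06% of all genes). DDB1, a subunit of the complex that recognises ultraviolet damage, had 482 and 528 CPM with clofarabine and 506 and 521 CPM with DMSO. RAD23B, a partner in lesion recognition in surveys of the whole genome, had 421 and 398 CPM with clofarabine and 397 and 368 CPM with DMSO. The lower clofarabine library of RAD23B exceeded the higher DMSO library by less than either within-group gap. XPA, which verifies the lesion, averaged 15.9 ± 1.22 CPM with clofarabine and 14.2 ± 3.41 CPM with DMSO. The TFIIH helicase genes ERCC2 and ERCC3 had log2 fold changes of 0.01 and -0.01.

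ERCC1 encodes the partner of the nuclease ERCC4, which cuts on the 5′ side of the lesion. ERCC1 had 71.6 and 83.4 CPM with clofarabine and 94.3 and 90.4 CPM with DMSO. Both clofarabine libraries were below the DMSO libraries, and C0 was the lowest. The log2 fold change was -0.24 (SE 0.083, 95% interval -0.42 to -0.07), with an unadjusted p of 0.00774 and an edgeR adjusted p of 0.145. It passed edgeR's threshold with the authors' scaled fragments (-0.29, adjusted p = 0.0405). It also did so with a replicate block (-0.25, edgeR adjusted p = 0.0146), although the library numbers are not known to pair the samples. Without library C1 the log2 fold change was -0.37 and without C0 it was -0.14, the ends of its range over the 18 alternatives. On the FPKM scale ERCC1 had 33.4 and 38.2 with clofarabine and 43.5 and 37.9 with DMSO, and there the groups overlapped. ERCC4 gave a log2 fold change of 0.03.

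ERCC5 encodes the nuclease of the 3′ side, and its fragments were divided by the authors' counting between ERCC5 and the read-through gene model BIVM-ERCC5. ERCC5 alone had 17.2 and 14.5 CPM with clofarabine and 19.1 and 8.21 CPM with DMSO. Library V1 was far below V0, and the log2 fold change of 0.25 (SE 0.23) did not pass the test (edgeR adjusted p = 0.707). BIVM-ERCC5 was given 134 and 250 fragments with clofarabine and 102 and 198 with DMSO, so that V1 held more fragments in the joined model than the 92.2 it held in ERCC5. Summed over both models, the level was 27.3 and 25.3 CPM with clofarabine and 31.1 and 25.9 CPM with DMSO, or -0.11 on the log2 scale (SE 0.12, edgeR adjusted p = 0.758). The sign of the ERCC5 value was thus reversed by the sum. It was also reversed without V1 (-0.29, edgeR adjusted p = 0.82), and without V0 the gene was called higher (0.94, edgeR adjusted p = 0.000753, the lowest over the 18 alternatives, the highest being 0.999).

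ERCC6 and ERCC8 encode proteins that couple repair to a stalled RNA polymerase. ERCC6 had 19.1 and 18.6 CPM with clofarabine and 19.8 and 17.2 CPM with DMSO. Summed with PGBD3, a gene model inside it that shared its fragments, it had 26.5 and 24.7 CPM with clofarabine and 23.2 and 23.6 CPM with DMSO (log2 fold change 0.12, edgeR adjusted p = 0.727). ERCC8 had 18.1 and 19.6 CPM with clofarabine, above the 16.1 and 17.2 CPM with DMSO, but its log2 fold change of 0.18 (SE 0.14) gave an edgeR adjusted p of 0.636.

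**Figure D2:**
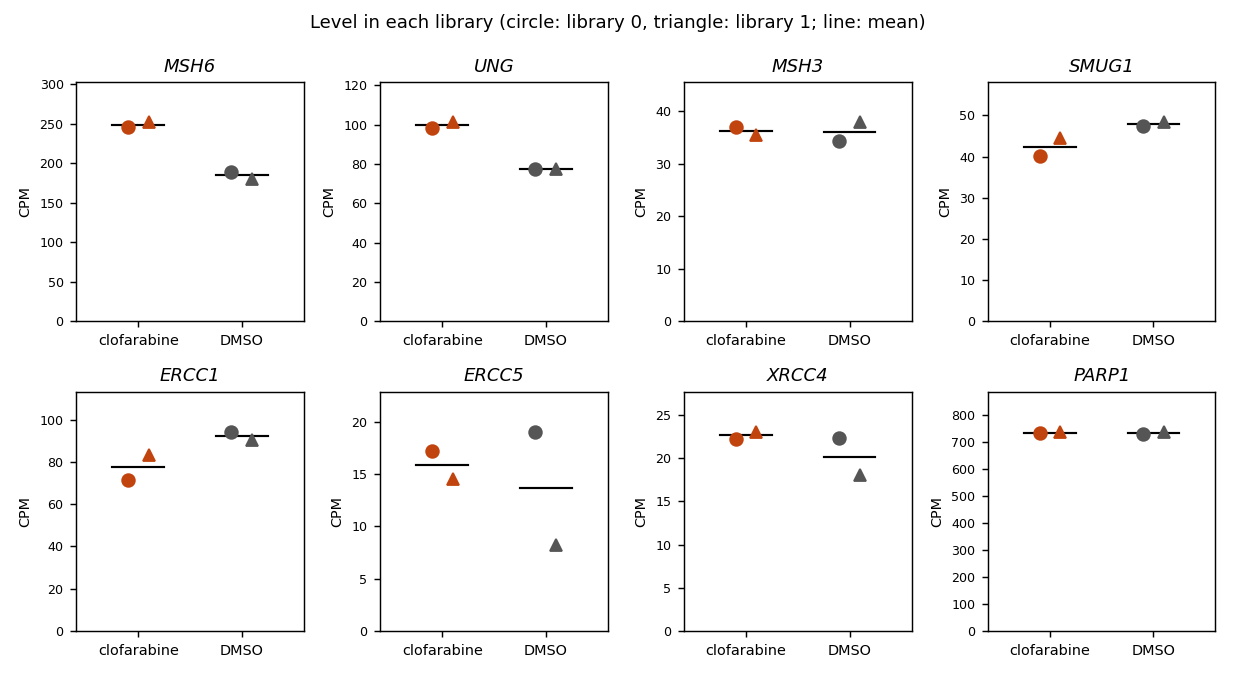
CPM in each library, clofarabine left of DMSO, for MSH6, UNG, MSH3, SMUG1, ERCC1, ERCC5, XRCC4 and PARP1, picked from the members described library by library. MSH6 at 245 and 252 CPM and UNG at 98.1 and 101 CPM lie above their DMSO libraries, ERCC1 lies below, and ERCC5 shows 8.21 CPM in a single DMSO library.

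In mismatch repair, MSH6 encodes the subunit of the MutS complex that recognises base mismatches and small loops. MSH6 had 245 and 252 CPM in the clofarabine libraries, against 189 and 181 CPM in the DMSO libraries. The difference between the groups was several times the gap within either of them. The mean was 249 ± 4.57 CPM with clofarabine and 185 ± 5.5 CPM with DMSO (SD, n = 2 each). The log2 fold change was 0.43 (SE 0.065, 95% interval 0.30 to 0.57, edgeR adjusted p = 0.000345), the smallest p among the members and rank 45 of 11761 genes. MSH6 was called in all 18 alternatives, with a log2 fold change between 0.39 and 0.46 and a highest adjusted p of 0.0387.

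MSH3 encodes the other MutS partner, which recognises larger loops. MSH3 had 37.1 and 35.5 CPM with clofarabine and 34.3 and 37.9 CPM with DMSO, a log2 fold change of 0.00 with a 95% interval of -0.21 to 0.21 in edgeR's fit. The ratio of MSH6 to MSH3 in FPKM was 6.81 and 7.31 with clofarabine and 5.66 and 4.90 with DMSO, so that it was higher in both clofarabine libraries.

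The MutL genes gave no call. PMS2, the endonuclease subunit of the main MutL complex, had 20.3 and 19.4 CPM with clofarabine and 19.5 and 19.9 CPM with DMSO. PMS2 has near-identical pseudogene copies, and how the authors' counting divided shared fragments is not given, so its level is uncertain. PMS1 had 15.3 and 12.1 CPM with clofarabine and 12.2 and 10.7 CPM with DMSO, or 0.25 on the log2 scale (SE 0.17, edgeR adjusted p = 0.574). MLH3, with a known part in meiosis, was the lowest of the tested members at 4.15 and 4.76 CPM with clofarabine and 4.83 and 4.37 CPM with DMSO. In mismatch repair as a whole 1 of 5 genes rose (1.54% of all genes) and the median log2 fold change was 0.01.

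Among the end joining genes, edgeR, DESeq2 and limma-voom each called 0 of 8, and 0 had an unadjusted p under 0.05 in edgeR. Over all genes edgeR called 2.57%, and 8.17% were higher and 6.06% lower at an unadjusted p under 0.05. XRCC5 and XRCC6 encode the 2 Ku subunits that grip broken ends. XRCC5 had 579 and 596 CPM with clofarabine and 591 and 589 CPM with DMSO. XRCC6 had 577 and 648 CPM with clofarabine and 605 and 604 CPM with DMSO. PRKDC, the catalytic subunit of DNA-PK that Ku recruits, had 592 and 545 CPM with clofarabine and 553 and 551 CPM with DMSO. The clofarabine libraries of XRCC6 and PRKDC lay on either side of the DMSO libraries, C1 being the higher for XRCC6 and the lower for PRKDC.

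XRCC4, the scaffold of the end joining ligase LIG4, had the smallest p of the group. XRCC4 had 22.2 and 23.1 CPM with clofarabine and 22.4 and 18.0 CPM with DMSO, and the low V1 stood alone while the other libraries were close. Its log2 fold change was 0.18 (SE 0.14, edgeR adjusted p = 0.624), between 0.01 and 0.33 over the 18 alternatives. LIG4 had 13.9 and 11.1 CPM with clofarabine and 10.0 and 12.9 CPM with DMSO. NHEJ1, a partner of XRCC4, gave a log2 fold change of -0.01, and DCLRE1C, the nuclease Artemis that trims ends, gave 0.06. POLQ, the polymerase of the alternative, microhomology-mediated route, had 18.7 and 18.9 CPM with clofarabine, between the 22.7 and 16.9 CPM with DMSO. The groups overlapped for all 8 end joining genes, where they did not overlap for 43.2% of all genes. The median log2 fold change of the 8 was 0.03.

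How small a change could be seen differed with the level of the gene. The standard error of the log2 fold change was 0.065 to 0.070 for the 8 members above 100 CPM, 0.076 to 0.136 for the 18 between 20 and 100 CPM and 0.131 to 0.272 for the 14 below 20 CPM. Of the 38 members without a call, 22 had a 95% interval within a 1.25-fold change in either direction and 35 within a 1.5-fold change. ERCC5, MLH3 and PMS1 had wider intervals, and all 38 intervals lay within a 2-fold change.

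**Figure D3:**
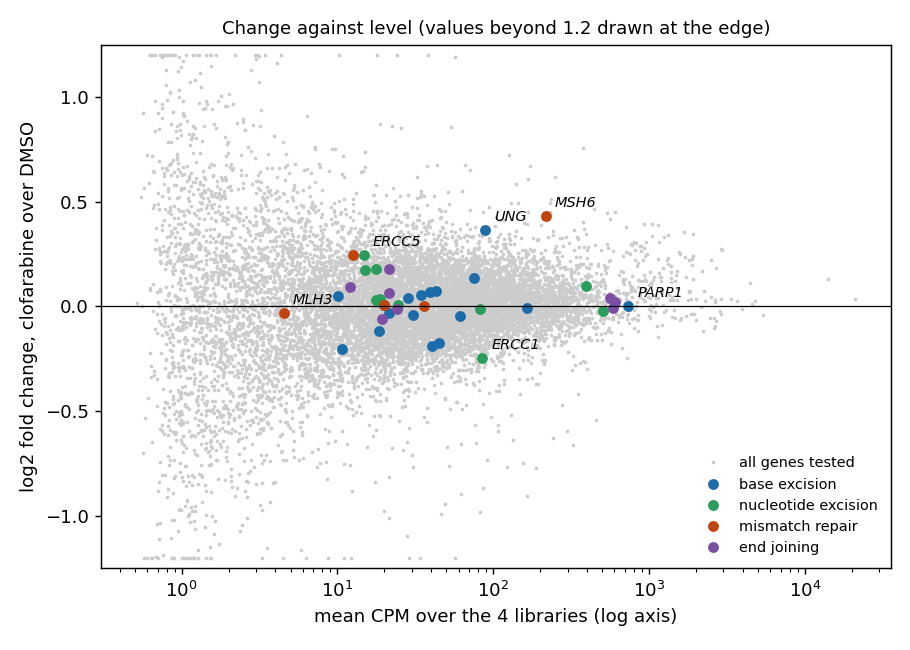
Log2 fold change of clofarabine over DMSO against mean CPM on a log axis, members in colour over all tested genes in grey. MSH6 and UNG stand above members of like level, and standard errors, not drawn, reach 0.272 for members at the left.

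Summed over each route, mismatch repair was the route whose groups did not overlap, with no test made of the sums. Its 5 genes came to 322 and 324 CPM with clofarabine and 259 and 254 CPM with DMSO, a ratio of 1.26, and MSH6 held 74.8% of the sum over the libraries. Without MSH6 the other 4 came to 76.9 and 71.8 CPM with clofarabine and 70.9 and 72.9 CPM with DMSO, so that the groups overlapped. Base excision came to 1451 and 1502 CPM with clofarabine and 1456 and 1462 CPM with DMSO, with PARP1 at 50.1% of it. Nucleotide excision came to 1173 and 1199 CPM with clofarabine and 1194 and 1158 CPM with DMSO. End joining came to 1850 and 1888 CPM with clofarabine and 1852 and 1835 CPM with DMSO. These 3 sums overlapped between the groups.

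Per transcript length the members spanned a wide range of levels. XRCC6 was highest, with 291 and 327 FPKM in the clofarabine libraries and 306 and 304 FPKM in the DMSO libraries. PARP1 (189 FPKM in each group's mean) and XRCC5 (177 FPKM with clofarabine and 178 FPKM with DMSO) followed, and neither overlapped its neighbours in the order. APEX1 and DDB1 came next and overlapped each other. Those 5 were above 100 FPKM in every library. MSH6 stood eighth, with 58.0 and 59.4 FPKM with clofarabine and 44.6 and 42.6 FPKM with DMSO, and UNG stood ninth, with 51.6 and 53.1 FPKM with clofarabine and 40.7 and 40.5 FPKM with DMSO. At the low end 8 members were under 5 FPKM in every library, and MLH3 and NEIL1 were under 1 FPKM. Of the 40 neighbours in the order, 26 overlapped over the 4 libraries.

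**Figure D4:**
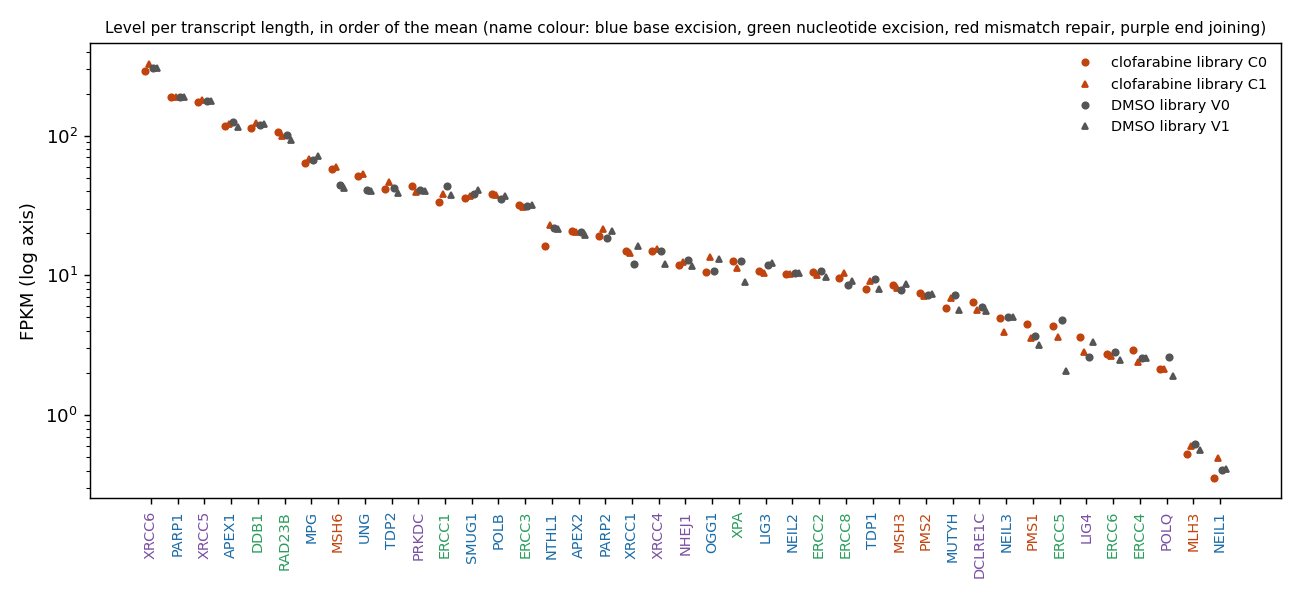
The authors' FPKM values of the 41 members in each library on a log axis, ordered by mean, clofarabine and DMSO in different colours. XRCC6 leads with 291 FPKM or more in each library, MLH3 and NEIL1 lie below 1 FPKM, and the groups separate visibly for MSH6 and UNG.

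For pairs of genes whose products are partners or have like roles, the ratio of their FPKM values was compared over libraries. UNG to SMUG1 was 1.45 and 1.44 with clofarabine and 1.06 and 0.983 with DMSO, higher in both clofarabine libraries. The Ku ratio, XRCC6 to XRCC5, was 1.67 and 1.82 with clofarabine and 1.71 and 1.72 with DMSO. XRCC1 to LIG3 was 1.39 and 1.38 with clofarabine and 1.01 and 1.32 with DMSO, and APEX1 to APEX2 was 5.63 and 5.90 with clofarabine and 6.20 and 5.94 with DMSO. The groups overlapped for ERCC1 to ERCC4, XRCC4 to LIG4 and PARP1 to PARP2. With 2 libraries against 2 a permutation test of a single ratio cannot go below p = 0.333, so no test of these ratios is given.

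Other genes of the same routes were read in the same fit, from a list of 50 of which 48 were tested. The list was chosen with earlier results of these data known, so its shares are described only. Of the 48 tested, 5 rose (10.4% against 1.54% of all genes), 0 fell in edgeR's test and 43 gave no call. At an unadjusted p under 0.05, 11 of the 48 were higher and 0 lower, against 8.17% and 6.06% of all genes. The list's median log2 fold change was 0.07. Mismatch repair held 3 of the rises among its 11 further genes. EXO1, the exonuclease that removes the mismatched strand, had 168 CPM in each clofarabine library and 124 and 115 CPM in the DMSO libraries. Its log2 fold change was 0.49 (SE 0.070, edgeR adjusted p = 0.000145), and it was called in all 18 alternatives, between 0.43 and 0.55.

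The other 2 were factors shared with the replication fork. PCNA, the sliding clamp, had 364 and 362 CPM with clofarabine and 305 and 298 CPM with DMSO (log2 fold change 0.27, edgeR adjusted p = 0.025). RFC4, a subunit of the clamp loader, had 114 and 118 CPM with clofarabine and 97.7 and 90.0 CPM with DMSO (0.31, edgeR adjusted p = 0.0292). In base excision, 2 of 9 further genes rose, against 1.54% of all genes. MBD4, a glycosylase of thymine and uracil opposite guanine, had 60.4 and 63.8 CPM with clofarabine and 46.0 and 48.6 CPM with DMSO (0.39, SE 0.087, edgeR adjusted p = 0.0145). FEN1, the nuclease that cuts flaps in long-patch repair and in replication, had 287 and 292 CPM with clofarabine and 249 and 234 CPM with DMSO (0.26, edgeR adjusted p = 0.0322). These 4 lost the call in 4 to 6 of the 18 alternatives, among them both FPKM scales and the fit without V1. DESeq2 called FEN1 (adjusted p = 0.0371) and PCNA (adjusted p = 0.0115), but not MBD4 (adjusted p = 0.0854) or RFC4 (adjusted p = 0.102). In edgeR, FEN1 also lost the call with upper-quartile scaling (adjusted p = 0.0543) and RFC4 after thinning to equal depth (adjusted p = 0.071). Without V1 the edgeR adjusted p was 0.0657 for MBD4, 0.603 for FEN1, 0.431 for PCNA and 0.55 for RFC4. Without V0 the edgeR adjusted p was 0.0984 for MBD4, 0.11 for FEN1 and 0.165 for PCNA, and without C1 it was 0.0616 for RFC4.

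None of 21 further nucleotide excision genes passed edgeR's test, with 4 higher and 0 lower at an unadjusted p under 0.05 (8.17% and 6.06% of all genes). Of 8 further end joining genes, DNTT, the template-independent polymerase of lymphoid cells, was at 0 in every library. The other 7 gave 0 calls in edgeR and 0 unadjusted p under 0.05, with a median log2 fold change of -0.07. Members and further genes together gave 4 rises among 16 mismatch repair genes, 3 among 26 base excision genes, and 0 among 31 nucleotide excision and 15 end joining genes. Of all genes tested, 1.54% rose. PCNA and RFC4 were listed under mismatch repair alone although they also serve gap filling in nucleotide excision. The counts thus depend on where shared factors were listed, and on lists chosen with earlier results of these data known. The counts of the routes were not tested against each other.

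**Figure D5:**
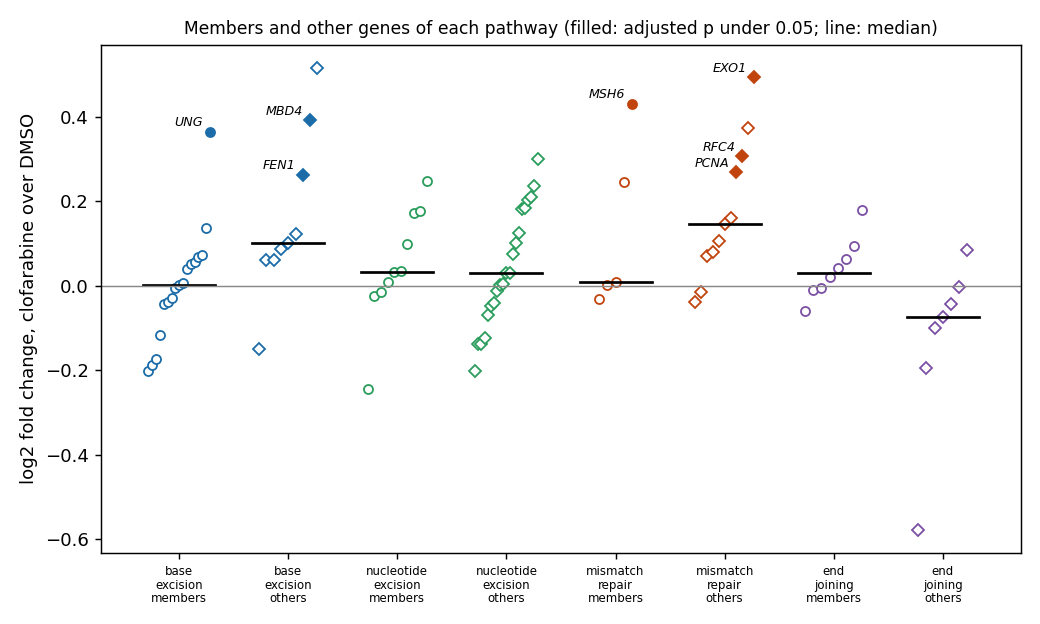
Log2 fold change of clofarabine over DMSO of the members (circles) and of the other genes of each route (diamonds), with the median of each column as a line and genes with an edgeR adjusted p under 0.05 filled. The 7 filled points, between 0.26 for FEN1 and 0.49 for EXO1, lie in the base excision and mismatch repair columns.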

How the data were processed

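RNA-seq of 4 K562 samples, 2 with clofarabine and 2 with DMSO, was analysed. Per the labels' protocols, strand-keeping libraries were prepared from total RNA (NEBNext kit). Per the submitters' processing notes, cutadapt 1.5, TopHat2 2.0.13 and Cuffdiff 2.2.1 were used with hg19. Neither the annotation nor the strand setting is given in the sources used here, and overlapping or antisense genes could share reads. In the deposited table each gene and library has an estimated count, the authors' scaled fragments (a signal, per the file headers) and the authors' FPKM. A further 1 column of per-sample values was not used. A failed status was given for 6 genes, 0 of them members.

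Estimated counts were rounded, which changed 431 to 483 genes a library. Of the members, ERCC5 and ERCC6 held fractional counts. Of 23615 genes, 11761 passed edgeR's filterByExpr (minimum count 10) and were compared by the quasi-likelihood test with TMM scaling (factors 0.968 to 1.02) in edgeR 4.0.16 (R 4.3.3), the model holding group alone. The common coefficient of variation was 6.01%. Standard errors are the log2 fold change over the square root of F. Counts were simulated at the mean levels and depths of these libraries, with that common coefficient of variation for every gene. Changed genes were not taken from the lowest levels. Of genes changed by 0.5 on the log2 scale 79.2% were recovered, and of those changed by 1, 100%. There were 14 false calls among the unchanged genes, with 11655 genes tested. Recovery for genes of lower level or wider spread was not tested.

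A chi-square of the counts, divided by its degrees of freedom, was 6.55 between the clofarabine libraries and 2.73 between the DMSO libraries, above sampling noise, and each library was kept as 1 replicate. Between groups it was 4.08 (C0 with V0) to 10.76 (C1 with V1), so that by this measure, which grows with depth, C0 lay nearer to V0 than to C1. Library numbers of the table are not tied to the labels' replicate numbers.

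The members, the list of 50 other genes and the markers were chosen with earlier results of these data known. Values of every library are given for called members, for the smallest p in each of the 4 routes and for the 3 largest changes. Other members are given by role, many of them also with every library, for which no rule was set. Of the other genes, called ones are named. Alternatives used DESeq2 1.42.0, limma 3.58.1 (voom, and log2(FPKM + 1) and log2(FPKM + 0.1)), other scalings and filters, the scaled fragments, omission of each library, a replicate block, removal of a trend on transcript length (loess span 0.3) and thinning to 8370550 fragments. Summing ERCC5 with BIVM-ERCC5 and ERCC6 with PGBD3 was added after seeing the data.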

Additional observations from a re-analysis of the deposited data

How the results depend on the processing

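MSH6 and EXO1 kept their calls in all 18 alternatives run. The 2 members called higher became 1 on log2(FPKM + 1) and log2(FPKM + 0.1), and 1 to 3 without a library. The 0 called lower became 1, ERCC1, with the authors' scaled fragments and with the replicate block, and 0 to 1 without a library. The cause was not tested. Without a library a group holds 1 sample, and its spread was taken from the other group. The replicate block called 494 genes higher and 302 lower, and ERCC1 gave -0.25 (edgeR adjusted p = 0.0146) in it. The table's numbers share no source in the labels, and deviations of same-numbered libraries correlated at -0.00383.

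Over all genes, 181 called higher became 110 with upper-quartile scaling, 298 with no filter, 90 with DESeq2, 19 on log2(FPKM + 1), 27 on log2(FPKM + 0.1), 288 with the length trend removed, 107 after thinning, 58 at an adjusted p under 0.01 and 283 under 0.1. Leaving out a library gave 57 (without V1) to 454 (without C0). The 121 called lower became 200 (with 170 higher) by library size only, 76 with DESeq2, 37 on log2(FPKM + 1), 45 on log2(FPKM + 0.1), 211 (with 182 higher) with the authors' scaled fragments, 198 with the length trend removed, 70 under 0.01 and 183 under 0.1, and 73 (without V1) to 182 (without C0) without a library.

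By library size only, the median log2 fold change of mismatch repair was -0.0279 and that of end joining -0.0044, and with the authors' scaled fragments end joining gave -0.0041. After thinning, mismatch repair gave 0.1204. Without a library, base excision ranged from -0.0364 to 0.0525, nucleotide excision from -0.0321 to 0.0947, mismatch repair from 0.0383 to 0.0731 and end joining from 0.0007 to 0.0523. ERCC5 gave 0.94 and a call without V0, and was reversed without V1 (-0.29) and in the sum with its joined model (-0.11). Scaling by totals alone moved the median of all genes to -0.03.

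Depth was lowest in V0. Among the members of the shortest length tertile C1 lay above C0 in 13 of 17 (2667 of 3920 over all genes), and in 5 of 12 of the longest (1376 of 3921 over all genes), and the part of transcript length in these results was not tested beyond the alternative that removes its trend.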
